A study of Drosophila melanogaster with 16 samples.

Results

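Cytoplasmic ribosomal protein genes were read member by member: every row of the raw gene count table whose FlyBase symbol begins with RpL or RpS, in all 16 libraries. The rule gave 91 of 17737 genes, 54 of the large subunit and 37 of the small subunit. Genes of the mitochondrial ribosome, whose symbols begin with mRp, were not members. Of 92 symbols in the annotation that begin this way, 91 had a row of that symbol, and RpS12 was not analysed here. A member was called low-expressed when its mean level over the 16 libraries was below 0.1 of that of the median member, a limit of 304 CPM. CPM are counts of a gene scaled to a fixed library total with TMM factors. These factors were computed over all 16 libraries for these means and the levels per kilobase. For the levels of members in single libraries they were computed within a month. The limit gave 11 low-expressed members, 5 large and 6 small, and 80 core members, 49 large and 31 small. The members nearest to the limit were RpLP0-like below it, at 142 CPM, and RpL34a above it, at 328 CPM.

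Each cytoplasmic ribosome holds about one copy of most ribosomal proteins, so the genes are transcribed at high and balanced levels, and in insects many of their promoters begin at a pyrimidine-rich TCT initiator read by the TBP-related factor Trf2. Their mRNAs carry a terminal oligopyrimidine start and are translated under control of the TOR pathway. Several families in Drosophila keep an extra copy that is used mainly in the gonads. PARP1, the enzyme targeted in the study, attaches chains of ADP-ribose to proteins at chromatin, and in Drosophila it is also known for roles in the nucleolus, where ribosomal RNA is made.

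The libraries were ribosomal-depleted RNA of S2 cells, a hemocyte-like line from embryos of Drosophila melanogaster. In KD libraries PARP-1 had been depleted with siRNA. In PARPi libraries its PARylation activity had been blocked with the inhibitor PJ34 at 10 µM for 16 h. WT libraries were the cells set against both, and no source used here says whether they had received a control siRNA or vehicle. The labels state that depletion of the protein was checked by western blot. The labels give each library a month: December held 3 KD, 3 PARPi and 3 WT libraries, and October held 4 KD and 3 WT libraries and no PARPi library. The comparisons asked whether removing the protein and blocking its activity changed the same genes. No source used here says what the month stands for, and nothing in the labels says that replicates came from separate cultures, so each p-value measures the spread between these libraries, which may be technical.

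Total counts were between 58531662 and 90439074 per library, and the 95% exact binomial interval of the share of counts on members was at most 0.0117 percentage points to either side, which covers counting error only. Parp1 mRNA, the siRNA target, had 159, 167 and 137 CPM in the December KD libraries and 171, 181 and 159 in WT, and 76.3, 81.3, 87.9 and 76.3 CPM in the October KD libraries and 95.3, 94.6 and 77.6 in WT. Its log2 fold change was -0.14 (SE 0.08, adjusted p = 0.32) in December and -0.15 (SE 0.06, adjusted p = 0.0962) in October, so the mRNA did not pass the test in either month and the groups are named here as the labels name them. Of 9 hemocyte markers, 8 averaged at least 1 CPM. The summed level of the hemocyte markers was 4006 to 4897 CPM in December and 1887 to 2132 CPM in October, so the months did not overlap. This difference was not tested. Summed levels over the libraries reached 9.32 CPM for germline, 10.8 for ovarian soma, 0.995 for muscle and 0.0779 for fat body markers. Those of neuron markers lay between 28.9 and 44.9 CPM.

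Members took 27.3, 29.0 and 28.4% of all counts in the December KD libraries, 28.5, 30.8 and 30.0% in the PARPi libraries and 30.0, 31.2 and 32.6% in the WT libraries. In October they took 30.5, 30.9, 30.9 and 31.0% in the KD libraries and 29.1, 29.3 and 31.1% in the WT libraries. The December KD values all lay below the WT values, while in October the highest WT library lay above every KD library. Small subunit members held between 38.1 and 38.4% of the members' counts in the December KD libraries, 37.9 to 38.2% in PARPi and 37.5 to 38.0% in WT. In October they held 40.1 to 40.5% in KD and 40.5 to 41.0% in WT, so the months did not overlap and the groups of a month lay within 1 percentage point of each other. With libraries scaled by TMM, a scaling that assumes most genes do not change, the core members lay at median log2 distances of -0.35, -0.20 and -0.28 from the WT mean in the December KD libraries, -0.18, 0.02 and -0.06 in the PARPi libraries and -0.09, -0.03 and 0.13 in the WT libraries. In October the distances were 0.21, 0.30, 0.22 and 0.26 in the KD libraries and -0.08, -0.03 and 0.12 in the WT libraries.

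**Figure D1:**
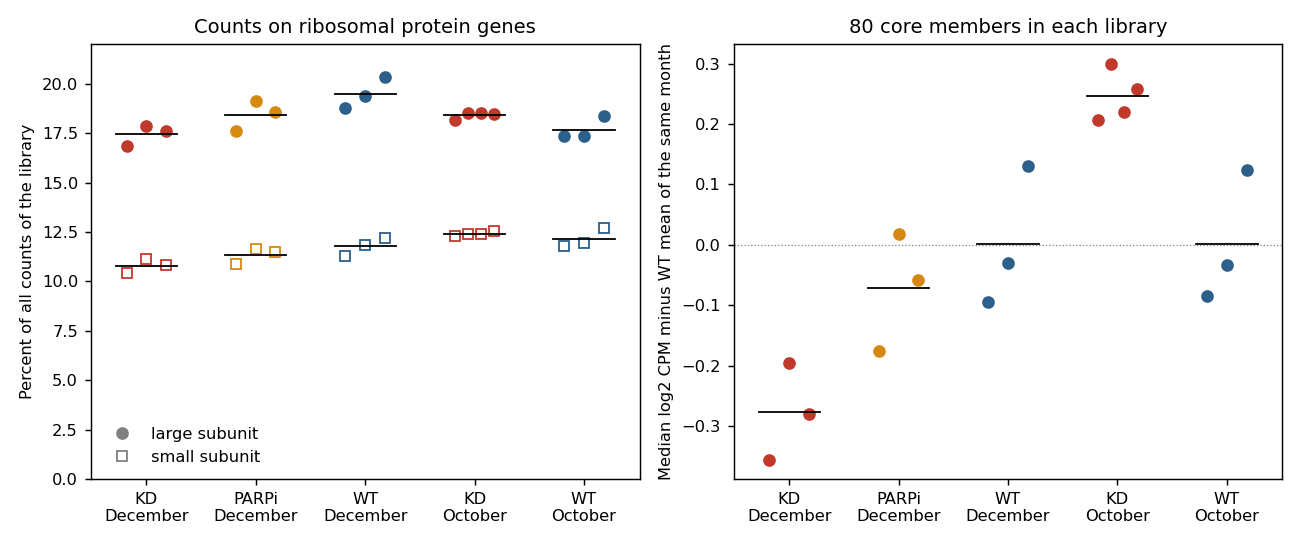
Left, percent of all counts of each library on large subunit (filled circles) and small subunit (open squares) members. Right, median over the 80 core members of log2 CPM minus the WT mean of the same month. Each point is 1 library and each line a group mean. The KD libraries sit below WT in December, at -0.35 to -0.20, and above WT in October, at 0.21 to 0.30.

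Levels per length differed widely among members. Per kilobase of summed exon length, the median core member had 3595 CPM, with the lowest, RpL24-like, at 447 and the highest, RpL41, at 39242. RpL41 encodes a basic peptide of 25 residues that sits at the interface of the subunits. RpLP2 followed at 13037, RpL21 at 10745 and RpL39, whose protein lines the exit tunnel, at 10594 CPM per kilobase. The core medians of the subunits were 3392 for the large and 3734 CPM per kilobase for the small. The low-expressed members had a median of 0.478 and a highest value of 154 CPM per kilobase. Replicates of a group varied by a median of 4.71 to 8.28% (SD over mean) for core members.

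In December, libraries labelled KD held less mRNA of most ribosomal protein genes than WT. Of 80 core members tested, 38 fell at an adjusted p under 0.05 in edgeR's quasi-likelihood test and 0 rose. Among all 11729 genes tested, 7.73% were called, 5.65% lower and 2.08% higher. By subunit, 21 of 49 large and 17 of 31 small core members fell, and 3 of 8 tested low-expressed members also did. The log2 fold change was below 0 for all 80 core members, with a median of -0.27 (large -0.28, small -0.27), against 0.01 over all genes. KD and WT libraries did not overlap for 74 of the 80, all lower, where 12.5% of all genes were. In bulk RNA, less mRNA per cell and fewer cells that express a gene cannot be told apart.

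RpL41 had 7672, 9255 and 9135 CPM in the KD libraries, 9073, 13629.6 and 10632 in the PARPi libraries and 13118, 13998 and 17093 in the WT libraries. The log2 fold change of KD against WT was -0.76 (SE 0.12, adjusted p = 0.00101), the lowest of any core member. RpL39 had 1940.4, 2408 and 2212 CPM in the KD libraries, 2301, 3336 and 2575 in the PARPi libraries and 3549.8, 3429 and 3924 in the WT libraries, and fell in KD by 0.73 on the log2 scale (SE 0.11, adjusted p = 5.15e-04). In both genes every KD library lay below every WT library. The PARPi libraries overlapped KD in both and WT in RpL41 alone. RpL29, a small basic protein of the large subunit, had 2243, 2788 and 2717 CPM in the KD libraries, 2624, 3865 and 3054 in the PARPi libraries and 3588, 4118 and 4865 in the WT libraries, with a log2 fold change in KD of -0.70 (SE 0.12, adjusted p = 0.00176). RpL38, another short protein of the large subunit, had 2750.1, 3474 and 3125 CPM in the KD libraries, 3347, 4551 and 3993 in the PARPi libraries and 4668, 4476 and 5728 in the WT libraries, with -0.67 (SE 0.11, adjusted p = 0.00113). At the other end stood RpL3 (chr3R:11221894-11225173, plus strand), the longest protein of its subunit, which lines the catalytic centre. It had 3129.5, 3093 and 3213 CPM in the KD libraries, 3245, 3285 and 3213 in the PARPi libraries and 3277, 3177 and 3482 in the WT libraries, overlapping values, with a log2 fold change in KD of -0.07 (SE 0.07, adjusted p = 0.647).

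The number of calls in December rested on a few libraries. Leaving out WT replicate 3, which had the highest member level, gave 8 members called, against 41 with all libraries, and leaving out KD replicate 3, KD replicate 1 or WT replicate 2 gave 9, 10 and 22. The 8 members called whichever library was left out were RpL27A, RpL29, RpL36, RpL38, RpL39, RpL41, RpS21 and RpS5b. The median of the core members stayed between -0.33 and -0.20 without any 1 library. DESeq2 called 63 members, all lower. Library sizes taken without the 20 genes with the most counts gave a median of 0.14 over all genes and -0.15 over the core members. Relative to all genes the core median was -0.29, as with TMM, which had to be so because a change of library size moves all genes alike. With a trend of counts on exon length removed, the core median was -0.15.

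PARPi changed no member past the threshold. Of 88 members tested, 0 rose and 0 fell in edgeR's test, with 14 at an unadjusted p under 0.05, and 0.29% of all genes were called, 0.153% higher and 0.136% lower. PARPi and WT libraries did not overlap for 7 core members, 2 higher and 5 lower, where 8.09% and 6.93% of all genes were apart in these directions. DESeq2 called 2 members, RpL39 and RpS15Ab, both lower. Without the filter on low counts 6 were called, RpL29, RpL38, RpL39, RpL41, RpS15Ab and RpS21, and without PARPi replicate 2 the same members except RpL38 were called, 5 in all. The core median was -0.07, with 63 of 80 members below 0 and values between -0.41 and 0.16. At the low end, RpL39 had a log2 fold change of -0.41 (SE 0.11, adjusted p = 0.116), RpL41 of -0.41 (SE 0.12, adjusted p = 0.186) and RpL29 of -0.40 (SE 0.12, adjusted p = 0.187). At the high end were RpL27 at 0.16 (SE 0.08, adjusted p = 0.418), RpL12 at 0.13 (SE 0.07, adjusted p = 0.516) and RpS13 at 0.12 (SE 0.07, adjusted p = 0.548). RpL12 is part of the base of the stalk that binds elongation factors, RpL27 lies in the large subunit and RpS13 in the small. RpS13 had 1535, 1555 and 1585 CPM in the KD libraries, 1815, 1872 and 1761 in the PARPi libraries and 1649.8, 1629 and 1745 in the WT libraries. RpL12 had 1708, 1808 and 1788 CPM in the KD libraries, 2031, 2176 and 2034 in the PARPi libraries and 1855, 1843 and 2011 in the WT libraries. Both genes were higher in all PARPi libraries than in all WT libraries and lower in all KD libraries than in all WT libraries, without passing the test in either comparison. Since PARPi and KD were set against the same 3 WT libraries, these values stand side by side and their likeness was not tested.

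Set directly against PARPi, the December KD libraries held less of RpL18, RpL27A and the low-expressed RpS5b, which were the only members past the threshold in the fit without a block. Over genes with a mean of at least 1 CPM, deviations of same-numbered KD and PARPi libraries correlated at 0.57, 0.33 and 0.13. Over the core members they correlated at 0.91, 0.62 and -0.20. Different-numbered KD and PARPi libraries gave -0.87 to 0.67 there, the highest for KD replicate 2 with PARPi replicate 3. The values over the core members therefore do not settle whether the numbers are pairs. A fit blocked on the replicate number called 50 members, all lower, RpL18, RpL27A and RpS5b among them. Without the block, 5.52% of all genes were called, 2.55% lower and 2.98% higher. KD and PARPi libraries did not overlap for 35 of 80 core members, all lower, where 11.1% of all genes were apart and lower and 10.5% apart and higher. RpL18, named after its values were seen, had 1110.4, 1212 and 1224 CPM in the KD libraries, 1437, 1515 and 1390.2 in the PARPi libraries and 1299.6, 1432 and 1578 in the WT libraries, and a log2 fold change of KD against PARPi of -0.29 (SE 0.08, adjusted p = 0.0336). RpL27A, likewise, had 2947, 3285 and 3161 CPM in the KD libraries, 3584, 4003 and 3918 in the PARPi libraries and 3821, 4027 and 4695 in the WT libraries, with -0.29 (SE 0.09, adjusted p = 0.0497). Both encode proteins of the large subunit, and in both the KD libraries lay below every PARPi and every WT library. The core median was -0.21 and all 80 core members lay below 0, between -0.36 for RpL41 and -0.0012 for RpL22, a protein at the outer surface of the large subunit. The count was unstable: 51 members were called without PARPi replicate 1 and 23 without KD replicate 2, against 1 without KD replicate 1, KD replicate 3, PARPi replicate 2 or PARPi replicate 3, and DESeq2 called 29.

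With TMM scaling, the October libraries labelled KD held more ribosomal protein mRNA than WT. Unscaled shares of all counts overlapped, at 30.5 to 31.0% in KD and 29.1 to 31.1% in WT. Of 80 core members, 62 rose and 0 fell, where 27.8% of all 12096 genes were called, 13.8% higher and 14.0% lower. These were 41 of 49 large and 21 of 31 small members. All 80 log2 fold changes were above 0, with a median of 0.24 (large 0.28, small 0.21), against 0.01 over all genes. The KD libraries lay above all WT libraries for 50 of the 80, where 16.3% of all genes did, and below them for 0 core members, where 16.7% of all genes did. Of the 66 members called in either direction, 48 were called whichever library was left out, and the number called then was between 50 and 79.

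RpL3 had 2416, 2207, 1967 and 2128 CPM in the October KD libraries, against 1396, 1173 and 1244 in WT, and its log2 fold change of 0.78 (SE 0.07, adjusted p = 3.68e-08) was the highest of any member. RpL24-like had 256, 299, 269 and 278 CPM in the October KD libraries, against 191, 181 and 196 in WT, with 0.54 (SE 0.05, adjusted p = 2.58e-07). Its yeast counterpart is a factor of large subunit assembly rather than a subunit of the finished ribosome. RpL10Ab, of the mobile L1 stalk from which spent tRNA leaves, had 2964, 2722, 2641 and 2691 CPM in the October KD libraries, against 1890.3, 1843 and 2005 in WT, with 0.53 (SE 0.05, adjusted p = 3.37e-07). In all these genes the lowest KD library lay above the highest WT library. At the low end, RpL41 had 12599.7, 15119, 14783 and 13839.7 CPM in the October KD libraries, against 12304, 14393 and 15394 in WT, with 0.01 (SE 0.07, adjusted p = 0.967). RpL35, a protein beside the tunnel exit, had 3471, 3035, 3323 and 3294 CPM in the October KD libraries, against 3099, 3113 and 3549 in WT, with 0.01 (SE 0.06, adjusted p = 0.916), and RpL38 had 4480.3, 5473, 5027 and 4941 CPM in the October KD libraries, against 3944, 4921 and 5565 in WT, with 0.05 (SE 0.08, adjusted p = 0.713). The groups overlapped in these genes, and a missed threshold does not show that their levels were the same.

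**Figure D2:**
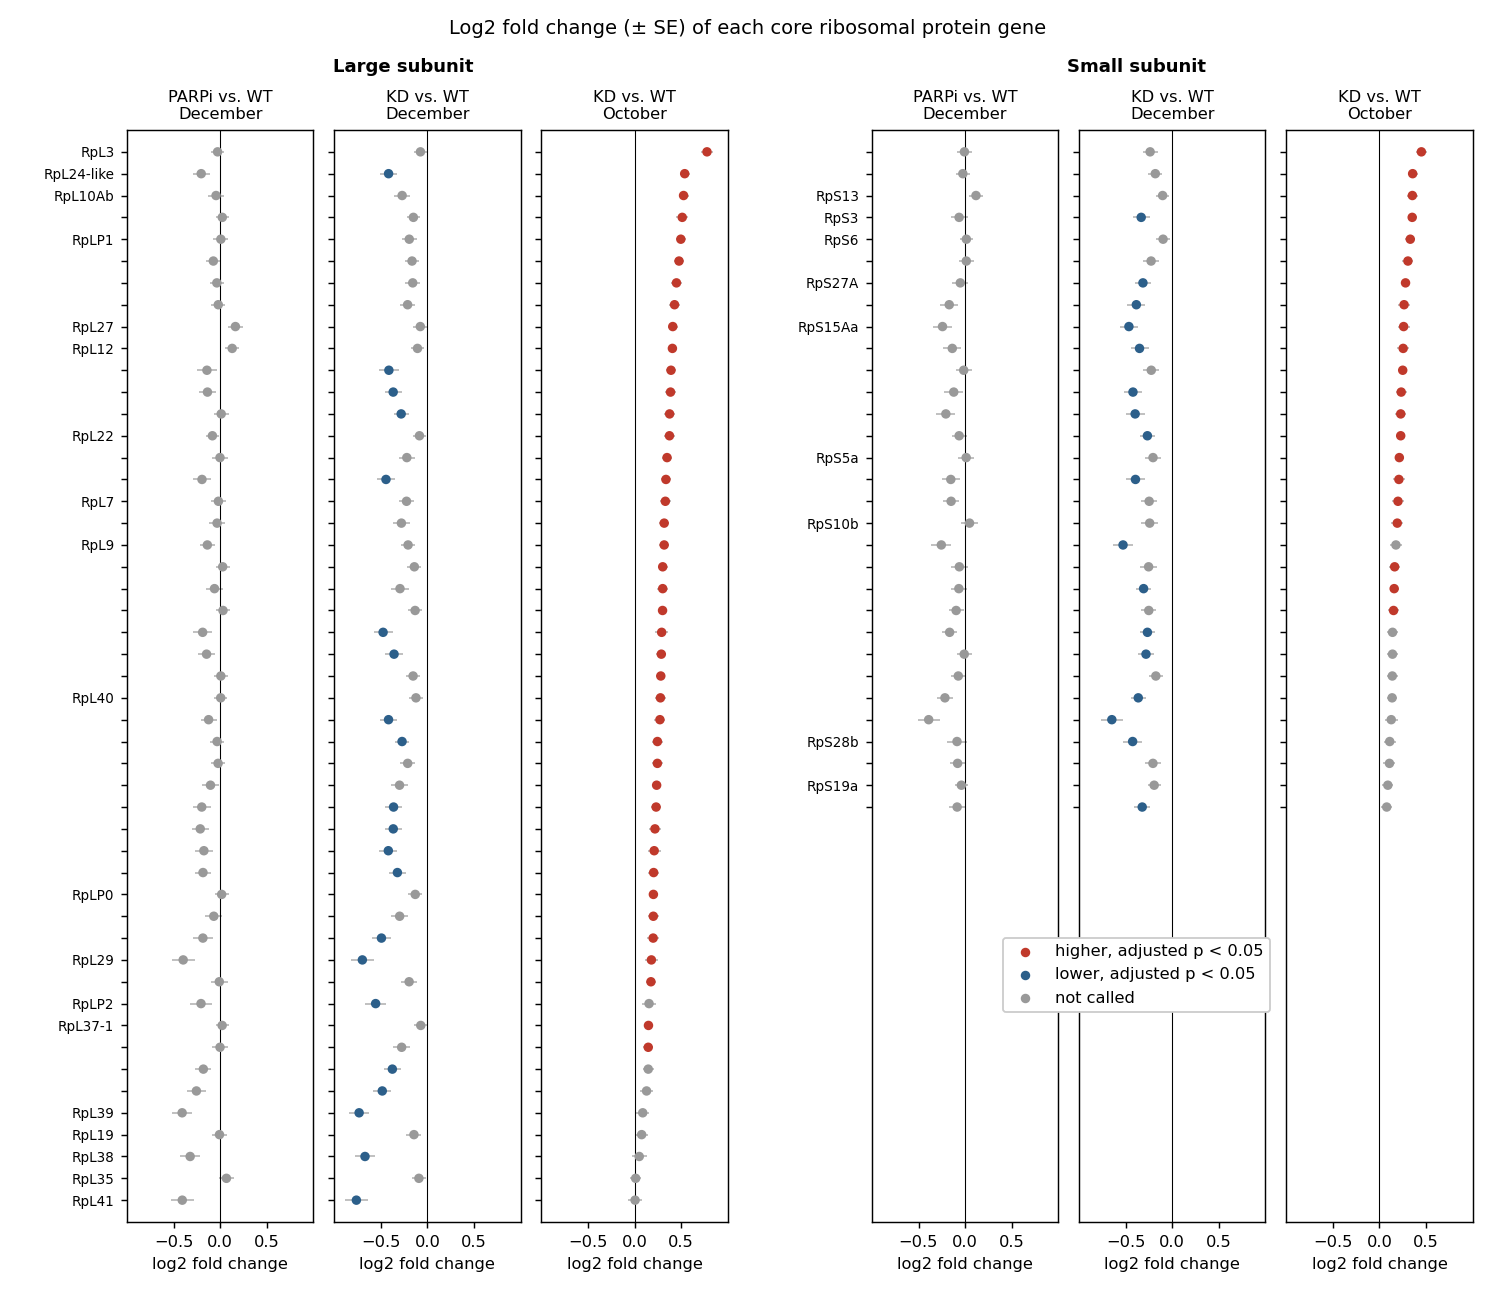
Log2 fold change of each core member, with bars of 1 SE, for PARPi against WT and KD against WT in December and KD against WT in October (columns), large subunit left and small subunit right, ordered by the October value, with the symbols of the genes named by rule. Blue points fell and red points rose at an adjusted p under 0.05. In December 38 members are blue and in October 62 are red, while no PARPi point passed the threshold.

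The change with KD therefore had opposite signs in the months, and the difference was tested in 1 model over the 13 KD and WT libraries. The October change minus the December change was above 0 for all 80 core members, with a median of 0.56, and passed the threshold for 77 of them, 46 of 49 large and 31 of 31 small. Among all 12652 genes, 8.33% passed in this direction and 5.77% in the other. The members that did not pass were RpL19, RpL35 and RpL37-1, with differences of 0.24 (SE 0.10, adjusted p = 0.114), 0.12 (SE 0.09, adjusted p = 0.437) and 0.24 (SE 0.08, adjusted p = 0.0514). RpL19 reaches across to the small subunit in an intersubunit bridge. The largest differences were those of RpL24-like, 0.97 (SE 0.10, adjusted p = 4.39e-08), RpL29, 0.90 (SE 0.12, adjusted p = 6.79e-06), and RpL3, 0.87 (SE 0.10, adjusted p = 3.71e-07). With any library left out, 76 to 81 members passed. Between the months, 25 core members fell in December and rose in October, 13 fell in December alone, 37 rose in October alone and 5 passed in neither. A single KD effect fitted over both months, which averages the opposite changes, gave a core median of 0.0041, with RpL3 the only core member called, at 0.39 (adjusted p = 0.0196). The month and everything that went with it cannot be told apart.

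In KD, mt:lrRNA, the large ribosomal RNA of mitochondria and the row with the most counts, changed in the same direction as the ribosomal protein genes in each month. It took 7.89, 9.09 and 8.14% of all counts in the December KD libraries, 8.12, 10.8 and 9.61% in PARPi and 9.95, 9.12 and 10.7% in WT. In October it took 15.8, 17.1, 15.3 and 15.6% in KD, against 9.84, 12.1 and 12.4% in WT. Its log2 fold change was -0.43 (SE 0.13, adjusted p = 0.0404) in December and 0.65 (SE 0.08, adjusted p = 8.93e-06) in October. mt:srRNA, the small ribosomal RNA of mitochondria, was not called in December KD, with 82.2, 118 and 100.3 CPM in the December KD libraries, against 99.8, 86.7 and 94.2 in WT and 0.10 (SE 0.13, adjusted p = 0.75), and rose in October, with 158, 149.5, 109.8 and 168 CPM in the October KD libraries, against 62.8, 67.7 and 76.8 in WT and 1.08 (SE 0.10, adjusted p = 8.26e-08). Relative to all genes, the core median was -0.29 in December and 0.23 in October with TMM. Library sizes that leave out the 20 genes with the most counts, mt:lrRNA among them, move all genes alike and cannot change these values. The part of mt:lrRNA in the levels was not tested.

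Which members departed from the set was read by scaling each library on the core members alone, so that a log2 fold change of 0 means a change like that of the typical core member. In December, 17 of 80 core members departed in KD, 5 above and 12 below the set. With this scaling 28.5% of all genes lay above the set and 0.656% below it. The members below it were RpL21, RpL23, RpL29, RpL36, RpL37A, RpL38, RpL39, RpL41 and RpLP2 of the large subunit and RpS15Aa, RpS21 and RpS29 of the small. Above it were RpL3, RpL27, RpL35, RpL37-1 and RpS6. RpL41 was furthest below, at -0.48 (SE 0.08, adjusted p = 0.0022), and RpL37-1 furthest above, at 0.21 (SE 0.07, adjusted p = 0.0393), with 2357, 2409 and 2277 CPM in the December KD libraries, against 2428, 2448 and 2523 in WT. RpL29, RpL38, RpL39 and RpL41 departed whichever library was left out. Without KD replicate 1, KD replicate 3, WT replicate 2 or WT replicate 3, these 4 were the only members that did.

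In October, 22 core members departed in KD, 13 above and 9 below, where 2.68% and 42.0% of all genes did. Among those above the set were RpL3, RpL4, RpL6, RpL10Ab, RpL12, RpL15, RpL24-like, RpL27, RpL28, RpL34b, RpLP1 and RpS24. RpL4 reaches with a long loop into the exit tunnel, and RpL15 is an rRNA-bound protein of the same subunit. Below it were RpL19, RpL35, RpL38, RpL39, RpL41, RpS14a, RpS19a, RpS26 and RpS28b. RpL3 departed by 0.52 (SE 0.07, adjusted p = 8.60e-09) and RpL41 by -0.24 (SE 0.05, adjusted p = 4.60e-05). In PARPi 0 members departed in edgeR's test, with 19 at an unadjusted p under 0.05, where 0.0171% of all genes lay above the set and 0.0% below. DESeq2 on the same scaling called 0. Without the filter on low counts 4 departed, without PARPi replicate 2 there were 3, and with the replicate block 6 departed. Between KD and PARPi 1 did, the low-expressed RpS5b, below the set (with the replicate block 6 did, 3 above and 3 below), where 6.08% of all genes lay above and 0.256% below.

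Of the core members that departed, 6 did so in both months: RpL3 and RpL27 above the set in both, RpL38, RpL39 and RpL41 below it in both, and RpL35 above it in December and below it in October. RpL35 was 0.19 (SE 0.06, adjusted p = 0.0334) relative to the set in December and -0.24 (SE 0.05, adjusted p = 3.42e-04) in October, with a difference of -0.46 (SE 0.08, adjusted p = 3.36e-05). Across the 80 core members the departures of the months, which share no library, had a Pearson correlation of 0.39 and a Spearman correlation of 0.33, given as a description, as members of 1 set share libraries and depth. In the difference between the months, 10 core members departed above and 8 below, where 0.672% and 53.7% of all genes did. Above were RpL3, RpL10Ab, RpL15, RpL23, RpL24-like, RpL29, RpL34b, RpL37A, RpL39 and RpL41, all of the large subunit, and among those below were RpL19, RpL31, RpL35, RpL37-1, RpLP0, RpS19a and RpS26.

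**Figure D3:**
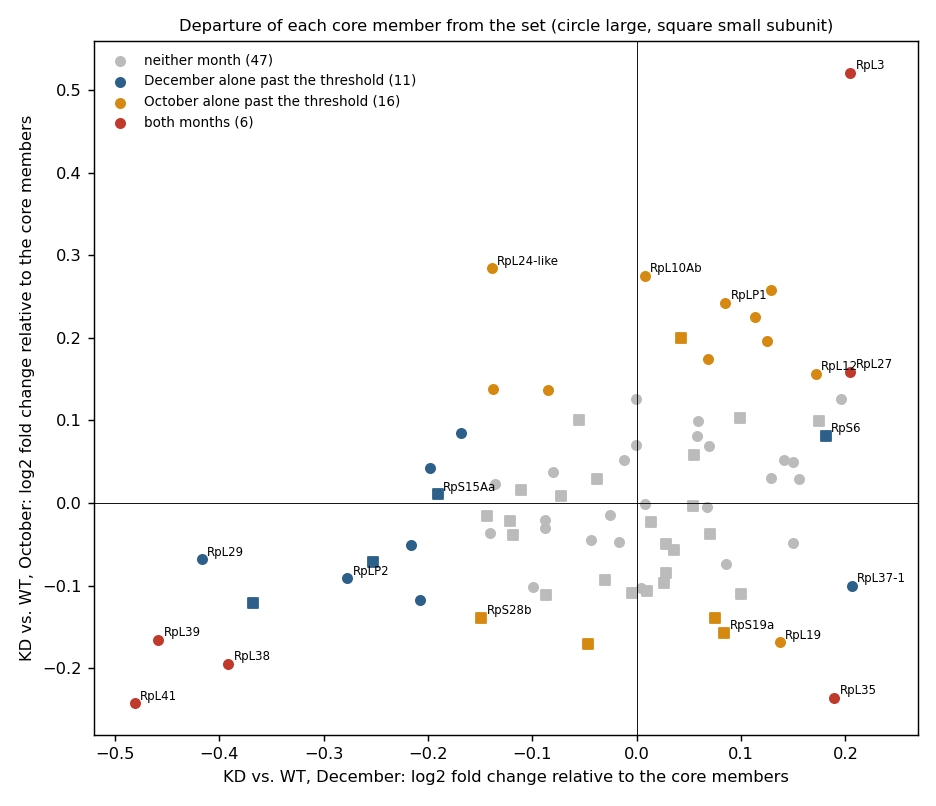
Log2 fold change of KD against WT relative to the core members, December on the horizontal and October on the vertical axis, for the 80 core members (circles large, squares small subunit). Colour gives the months in which a member passed the threshold: 11 in December, 16 in October and 6 in both, and symbols are given for genes named by rule. RpL41, RpL39 and RpL38 lie at the lower left and RpL3 at the upper right.

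Of the 12 core members that departed below the set in December KD, 7 were among the 10 that encode the shortest proteins, and of the 9 in October KD 4 were. The 10 core members with the shortest proteins, of 25 to 93 residues, had a median log2 fold change of -0.59 in KD in December, with 8 of 10 lower, while the 10 with the longest, of 262 to 416 residues, had -0.16, with 1 of 10 lower. In PARPi the medians were -0.29 and -0.03, with 0 called. In October KD they were 0.14 and 0.28, with 4 of 10 and 10 of 10 higher. Over the 80 core members, the fold change and the log2 coding length had a Pearson correlation of 0.62 in December KD, 0.52 in PARPi and 0.49 in October KD, and of -0.19 for the difference between the months. These are descriptions over genes of the same libraries, and in December they share the WT libraries. RpL37-1, with 93 residues, was the exception among the short proteins, at -0.07 in December KD. Fragment length and the recovery of short mRNAs were not measured in these files, and their part in the pattern was not tested. When a linear trend on coding length over the core members was removed, an alternative chosen after the data were seen, 9 members departed in December KD. RpL21, RpL29, RpL38, RpL39, RpS21 and RpS5b stayed below the set, and RpL27, RpL35 and RpL37-1 above it. RpL41 then lay at -0.10 (adjusted p = 0.255) and RpL3 at -0.0027 in December, while RpL3 kept 0.38 (adjusted p = 2.48e-10) in October. In October the departures of 4 members with short proteins were lost with this trend removed, with RpL38 at -0.08 (adjusted p = 0.148), RpL39 at -0.02 (adjusted p = 0.822), RpL41 at 0.02 (adjusted p = 0.79) and RpS28b at -0.02 (adjusted p = 0.814). Those of RpL4, RpL15 and RpS26, of 401, 204 and 114 residues, were lost too. They lay at 0.06 (adjusted p = 0.332), 0.10 (adjusted p = 0.0616) and -0.09 (adjusted p = 0.0866).

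**Figure D4:**
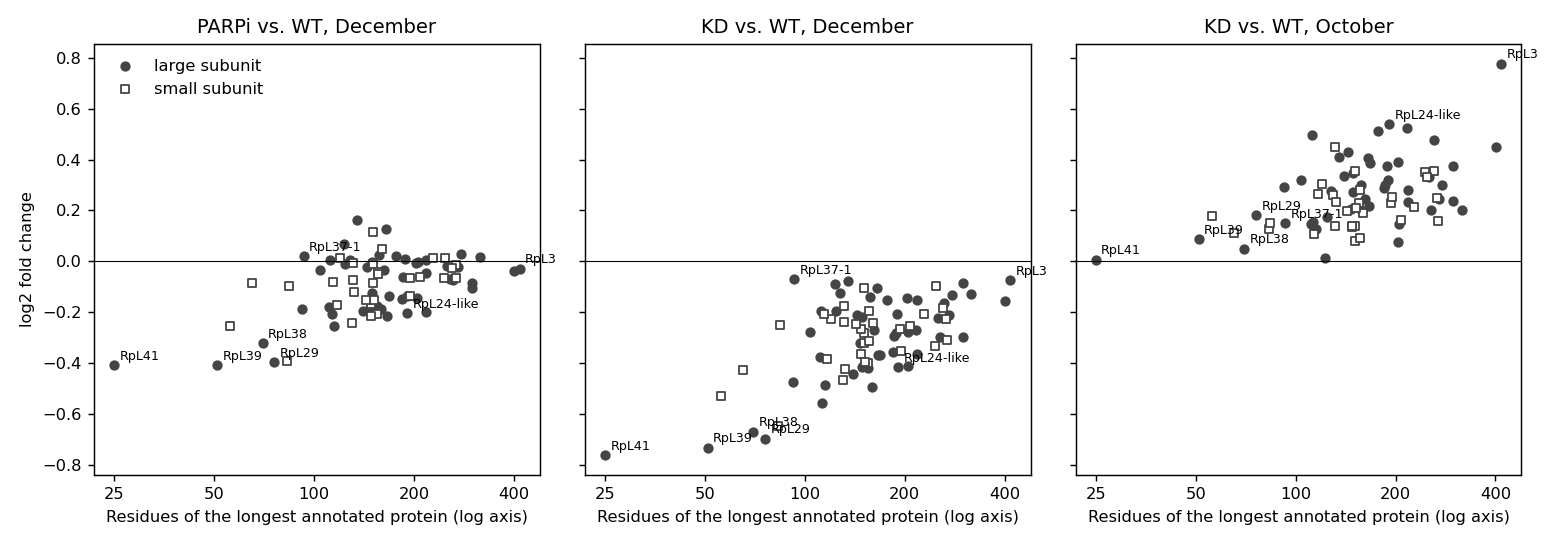
Log2 fold change of each of the 80 core members against the length of its longest annotated protein in residues (log axis), for PARPi and KD against WT in December and KD against WT in October. Filled circles are large and open squares small subunit members. The shortest, RpL41 at 25 residues, lies lowest in KD in both months, and RpL3, at 416 residues, lies highest in October.

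The fold change also went with the level of the core members. Its Spearman correlation with log2 mean CPM was -0.57 in December KD, -0.59 in PARPi and -0.42 in October KD. For log2 coding length the Spearman values were 0.42, 0.35 and 0.42. Pearson correlations with level were -0.38, -0.40 and -0.38. These are descriptions as well, and the part of level was not tested. By their medians, hosted snoRNA genes, chromosome and exon overlap set the members less apart. The 27 core genes whose introns or spans hold snoRNA genes had a median of -0.27 in December KD and 0.27 in October KD, against -0.28 and 0.21 for the 53 others. In October KD 5 of the 27 departed above the set and 0 below it, against 8 and 9 of the 53 others. The 14 core genes on the X chromosome had -0.23 and 0.17, against -0.28 and 0.25 for the 66 others. In October 4 of the 14 departed below the set and 0 above it, against 5 and 13 of the 66 others. Of all genes, 42.0% lay below and 2.68% above. Exons of 29 core genes overlap those of another gene, on either strand, and since the strand setting of the counting is not given, their counts may hold reads of the neighbour. Their medians were -0.28 and 0.30, against -0.27 and 0.23 for the 51 without overlap. In October KD 8 of the 29 departed above the set and 2 below it, against 5 and 7 of the 51. In the difference between the months 8 of the 29 departed above and 1 below, against 2 and 7 of the 51. Of all genes, 0.672% lay above and 53.7% below in that difference. Among the 29 are RpL3, with an antisense RNA gene, RpL24-like, with Dtd, RpL29, with CG9752, and RpL12 and RpL39, whose ends overlap each other.

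By role, the stalk that recruits elongation factors moved unevenly. RpLP0, its base, did not pass in December, with 2586, 2643 and 2432 CPM in the December KD libraries, against 2603, 2820.2 and 2962 in WT and -0.13 (SE 0.08, adjusted p = 0.375), and rose in October, with 2255, 2229, 2151 and 2301 CPM in the October KD libraries, against 1882, 1897 and 2047 in WT and 0.20 (SE 0.05, adjusted p = 0.00409). RpLP1, one of the acidic tips, had 3146, 3354 and 3107 CPM in the December KD libraries, against 3499, 3533 and 3961 in WT and -0.19 (SE 0.08, adjusted p = 0.154), and rose in October to 2884, 3095, 2954 and 3094 CPM in KD, against 2232, 1949 and 2212 in WT, with 0.50 (SE 0.06, adjusted p = 1.10e-06). RpLP2, the other tip, fell in December, with 5169, 6678 and 5967 CPM in the December KD libraries, against 8039, 8117 and 10026 in WT and -0.56 (SE 0.11, adjusted p = 0.00506), and did not pass in October, with 8100.5, 9721, 8617 and 9277 CPM in the October KD libraries, against 6957, 7907 and 9186 in WT and 0.16 (SE 0.08, adjusted p = 0.137). Thus of these 3 genes RpLP2 passed in December, and RpLP0 and RpLP1 in October, when RpL12, also of the stalk base, rose with 0.41 (SE 0.05, adjusted p = 5.70e-06). The test of the difference between the months gave 0.35 (SE 0.08, adjusted p = 0.00471) for RpLP0, 0.71 (SE 0.09, adjusted p = 2.10e-06) for RpLP1 and 0.73 (SE 0.13, adjusted p = 1.58e-04) for RpLP2.

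RpL40 and RpS27A are made as fusions behind a ubiquitin. RpL40 had 1621, 1681 and 1583 CPM in the December KD libraries, against 1711, 1756 and 1852 in WT, with -0.12 (SE 0.07, adjusted p = 0.373), and 2102, 1889, 2188 and 2068 CPM in the October KD libraries, against 1662, 1610.5 and 1830.1 in WT, with 0.28 (SE 0.06, adjusted p = 9.61e-04). RpS27A had 3170.1, 3630.0 and 3280.0 CPM in the December KD libraries, against 3942, 4122 and 4476 in WT, with -0.31 (SE 0.09, adjusted p = 0.0273), and 4215, 4568, 4504 and 4501 CPM in the October KD libraries, against 3466, 3619.9 and 3901 in WT, with 0.28 (SE 0.05, adjusted p = 4.46e-04). Both rose in October, and RpS27A fell in December. RpS3, at the entry of the mRNA channel, had 3688, 4205 and 3938 CPM in the December KD libraries, against 4600.3, 4864 and 5446 in WT, with -0.33 (SE 0.09, adjusted p = 0.0277), and 4103, 4075, 3987 and 4173 CPM in the October KD libraries, against 3072, 3159 and 3371 in WT, with 0.35 (SE 0.05, adjusted p = 2.39e-05). RpS6, the substrate of S6 kinase, had 2021, 2064 and 1996 CPM in the December KD libraries, against 2069.6, 2115 and 2327 in WT, with -0.10 (SE 0.07, adjusted p = 0.52), and 2517, 2324, 2275 and 2356 CPM in the October KD libraries, against 1820.0, 1809 and 2018 in WT, with 0.33 (SE 0.05, adjusted p = 9.19e-05). RpS3 fell in December and rose in October with groups that did not overlap, while RpS6 passed in October and not in December.

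Of the low-expressed members, 1 of 8 tested departed from the core in December KD and 4 of 9 in October KD, all below it. Of all genes, 0.656% lay below it in December and 42.0% in October, the latter near the share of the low-expressed members. RpS5b, the copy of RpS5a that is used mainly in the ovary, fell in KD in both months and did not pass in PARPi. It had 15.4, 18.9 and 17.2 CPM in the KD libraries, 23.0, 27.2 and 28.6 in the PARPi libraries and 24.0, 28.6 and 31.7 in the WT libraries. The log2 fold change of KD was -0.71 (SE 0.10, adjusted p = 2.60e-04) against WT and -0.62 (SE 0.10, adjusted p = 5.97e-04) against PARPi, and that of PARPi against WT was -0.10 (SE 0.10, adjusted p = 0.754). In October it had 5.58, 5.67, 4.89 and 5.55 CPM in the October KD libraries, against 6.69, 8.79 and 10.7 in WT, with -0.68 (SE 0.12, adjusted p = 1.55e-04). In each KD comparison every KD library lay below every library it was set against, and these calls held in every alternative tried and with each library left out. The change did not differ past the threshold between the months, with 0.05 (SE 0.15, adjusted p = 0.886). Relative to the core members RpS5b departed by -0.43 (SE 0.10, adjusted p = 0.0122) in December and -0.92 (SE 0.11, adjusted p = 1.10e-09) in October. RpS5a, the core copy, a protein of the small subunit head, had 4127, 4659 and 4283 CPM in the December KD libraries, against 4757, 5011 and 5315 in WT, with -0.21 (SE 0.08, adjusted p = 0.155), and 4437, 4567, 4347 and 4596 CPM in the October KD libraries, against 3699.8, 3869 and 4039.7 in WT, with 0.21 (SE 0.05, adjusted p = 0.00291). RpS5b supplied 0.372 to 0.403% of the counts of the pair in KD, 0.495 to 0.536% in PARPi and 0.502 to 0.593% in WT in December, and 0.112 to 0.126% in KD and 0.181 to 0.263% in WT in October. RpS5b lies at chr3R:14900432-14901563 of BDGP6 on the minus strand, in 3 exon blocks that overlap no other gene. Of the 3 germline markers with a row, the summed level was 2.25 to 2.45 CPM in KD, 1.45 to 1.84 in PARPi and 1.54 to 1.77 in WT in December, and 5.29 to 5.78 CPM in KD and 8.41 to 9.32 in WT in October. It was mostly aub, with vas at no more than 0.104 CPM in any library, and its part in the result was not tested.

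RpS19b, the gonad-enriched copy of RpS19a, a protein needed for maturation of the small subunit, had 8.18, 11.2 and 9.22 CPM in the KD libraries, 8.98, 14.2 and 10.9 in the PARPi libraries and 11.4, 11.4 and 13.7 in the WT libraries, with -0.36 (SE 0.13, adjusted p = 0.103) in KD. In October it rose, with 12.7, 14.2, 14.4 and 14.3 CPM in the October KD libraries, against 8.67, 10.8 and 11.3 in WT and 0.44 (SE 0.08, adjusted p = 4.46e-04), while RpS19a had 2989, 2715, 2848 and 2906 CPM in the October KD libraries, against 2499, 2609 and 2966 in WT, with 0.09 (SE 0.06, adjusted p = 0.273). RpS15Ab, a single-exon copy of RpS15Aa, fell in KD in both months. It did not pass in PARPi, although every PARPi library lay below every WT library and 5 of 10 alternative settings called it. It had 92.3, 110.4 and 98.6 CPM in the KD libraries, 95.5, 109 and 94.7 in the PARPi libraries and 113, 132 and 128 in the WT libraries, with -0.31 (SE 0.08, adjusted p = 0.0188), and 103, 114, 111 and 112 CPM in the October KD libraries, against 117, 124 and 128 in WT, with -0.17 (SE 0.05, adjusted p = 0.014). RpS15Aa fell in December, with -0.47 (SE 0.10, adjusted p = 0.00593), and rose in October, with 0.26 (SE 0.06, adjusted p = 0.00473). RpS15Ab supplied 2.07 to 2.25% of the counts of its pair in October KD and 2.78 to 3.1% in WT, ranges that did not overlap, while in December it supplied 2.55 to 2.73% in KD and 2.26 to 2.58% in WT, ranges that did. The copies are alike in sequence, and how reads with several matches were counted is not given, so their split is uncertain.

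RpLP0-like, whose yeast counterpart is a large subunit assembly factor related to the stalk base, had 124, 152 and 136 CPM in the KD libraries, 137, 159 and 153 in the PARPi libraries and 155, 176 and 165 in the WT libraries, with -0.27 (SE 0.08, adjusted p = 0.0372) in KD, and 117, 135, 136 and 133 CPM in the October KD libraries, against 129, 129 and 129.8 in WT, with 0.01 (SE 0.05, adjusted p = 0.898). It fell in December with its groups apart. In October it departed below the core by -0.24 (SE 0.07, adjusted p = 0.00385), as 42.0% of all genes did, while RpLP0 rose. RpL24-like, a core member by level, fell in December, with 327, 398 and 354 CPM in the December KD libraries, against 438, 469 and 533 in WT and -0.42 (SE 0.09, adjusted p = 0.00659), as did RpL24, the subunit itself, with 3125, 3675 and 3309 CPM in the December KD libraries, against 4071, 4425 and 5024 in WT and -0.42 (SE 0.10, adjusted p = 0.00959). In October RpL24 had 4310.4, 4902, 4148 and 4391 CPM in the October KD libraries, against 3332, 3854 and 4318 in WT, with 0.21 (SE 0.07, adjusted p = 0.0315). RpL24-like supplied 9.48 to 9.77% of the counts of the pair in KD and 9.59 to 9.72% in WT in December, and 5.6 to 6.09% in KD and 4.35 to 5.43% in WT in October, so the share in October KD lay above that in October WT.

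RpS10a, a single-exon copy of RpS10b known from the gonads, was near the limit of these libraries. It had 15, 9 and 20 counts in the December KD libraries, 11, 16 and 8 in PARPi and 8, 15 and 14 in WT, and 18, 19, 27 and 24 in the October KD libraries, against 57, 37 and 40 in WT. It fell in October, with -1.06 (SE 0.30, adjusted p = 0.0102), and no library of the groups overlapped, while RpS10b rose, with 0.19 (SE 0.06, adjusted p = 0.0303). RpL22-like, the testis copy of RpL22, had 1 to 15 counts in a library, RpL37-2 had 3 to 32 and RpL7-like, whose yeast counterpart is an assembly factor, 4 to 22, and none of them passed a test. RpS28-like had 0 to 3 counts in a library and was tested in October, with 0.49 (SE 1.06, adjusted p = 0.79), and for the difference between the months, with -2.02 (SE 1.78, adjusted p = 0.517). RpS28a had 3 counts over the 16 libraries, and RpL10Aa had 0 in every library, which allows up to 0.0332 to 0.0513 CPM. RpS28a and RpL10Aa were left out of the tests. The core members of these families, RpL7, RpL10Ab, RpL22, RpL37-1, RpS10b and RpS28b, supplied between 99.98 and 100% of the counts of each.

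**Figure D5:**
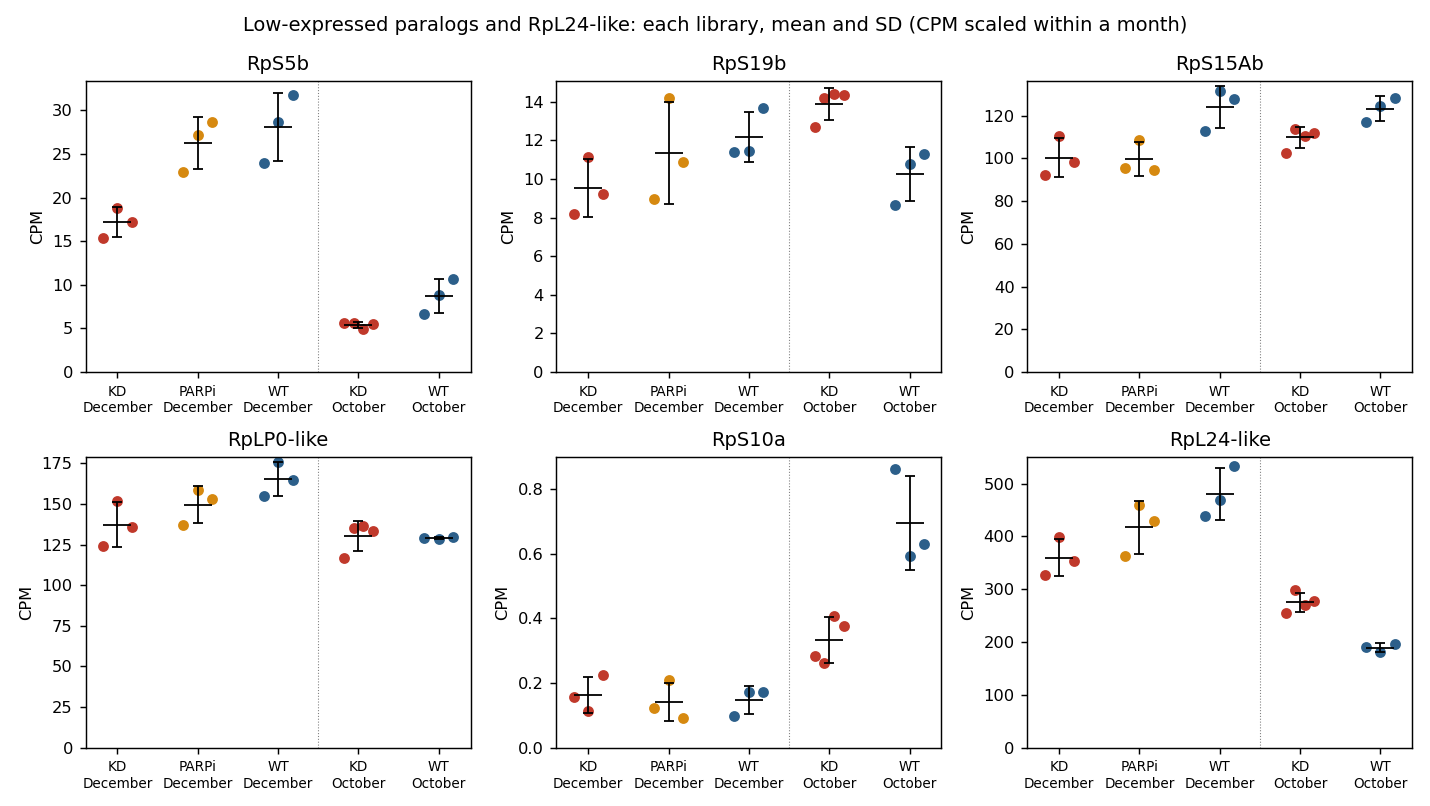
CPM of 5 low-expressed members and of RpL24-like in each library, with the mean and SD of each group, scaled within a month. RpS5b lies lower in KD than in WT in both months, while RpS19b, at 12.7 to 14.4 CPM in October KD against 8.67 to 11.3 in WT, and RpL24-like lie higher in October KD.

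Partners of the ribosome outside the rule moved with it in part. Of 11 such genes, 3 fell and 0 rose in December KD, and 7 rose and 0 fell in October KD, where 5.65% and 13.8% of all genes changed in these directions. In PARPi 0 were called in edgeR's test, and the medians were -0.14 in December KD, 0.37 in October KD and -0.04 in PARPi. sta, the small subunit protein known in vertebrates as RPSA, had 3779.7, 4129 and 3927 CPM in the December KD libraries, against 4495, 4737 and 5571 in WT, with -0.32 (SE 0.09, adjusted p = 0.0283), and 4228, 4247, 3909 and 4253 CPM in the October KD libraries, against 3022, 3131 and 3504 in WT, with 0.37 (SE 0.06, adjusted p = 4.98e-05). Elongation factor eEF2 had 4356, 4117 and 4198 CPM in the December KD libraries, against 4433, 4360.2 and 4524 in WT, with -0.07 (SE 0.08, adjusted p = 0.671), and rose in October, with 2159.9, 1955, 1963 and 2052 CPM in the October KD libraries, against 1605, 1309 and 1338 in WT and 0.52 (SE 0.06, adjusted p = 3.50e-06). In December eEF1beta and eEF5 also fell, with -0.30 (SE 0.08, adjusted p = 0.0293) and -0.37 (SE 0.09, adjusted p = 0.0172). In October eEF1beta, eEF5, eEF1alpha1, eEF1gamma and Rack1, a scaffold on the small subunit, also rose, with log2 fold changes of 0.40, 0.15, 0.45, 0.39 and 0.46.

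Of 13 regulators of these genes, 11 were tested, as Tor and Larp matched no row by the symbols used. Of the 11, 1 was called in December KD and 4 in October KD, shares near those of all genes, 7.73% and 27.8%. In December KD only Irbp18, a partner of the stress factor Xrp1, was called, with 58.2, 70.8 and 63.2 CPM in the December KD libraries, against 82.8, 75.3 and 90.9 in WT and -0.37 (SE 0.09, adjusted p = 0.0145). In October KD, Trf2 rose, with 239, 259, 227 and 244 CPM in the October KD libraries, against 174, 205 and 196 in WT and 0.34 (SE 0.06, adjusted p = 1.15e-04), as did M1BP, a promoter-binding factor, with 0.32 (SE 0.07, adjusted p = 8.77e-04), and rept, a Myc-associated ATPase, with 0.23 (SE 0.07, adjusted p = 0.0127). Thor, the Drosophila 4E-BP, which holds back cap-dependent translation, fell to 248, 224, 233 and 234 CPM in October KD, against 402, 337 and 367 in WT, with -0.65 (SE 0.05, adjusted p = 3.11e-08). In December Thor was higher in KD than in PARPi, with 0.38 (SE 0.08, adjusted p = 0.00472), and its difference between the months was -0.80 (SE 0.10, adjusted p = 1.29e-06). Their part in the levels of the members was not tested.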

How the data were processed

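The deposited values were raw counts per gene, which the authors made from paired-end reads of ribosomal-depleted RNA of S2 cells. Per the labels, the tools named were FastQC 0.10.1, STAR 2.6, HTSeq 0.10.0 and DESeq2 with build BDGP6. No source used here states the strand option or how multiply mapped reads were counted. Genes with at least 10 counts in total were tested with edgeR 4.0.16 (TMM, quasi-likelihood test, Benjamini-Hochberg adjustment, threshold 0.05) in R 4.3.3, over 9 December libraries, 7 October libraries, and 13 KD and WT libraries for the difference between months. Departures were tested in the same fit with size factors over the core members. DESeq2 1.42.0, other scalings and filters, a length trend, a replicate block and fits without each library were alternatives. The tests were tested on simulated data. Gene positions and lengths came from Ensembl release 115 of BDGP6, which matched 17599 of 17737 IDs. Genes were named by rule: low-expressed members with their families, the 3 core members furthest to either side of the core in each comparison, RpLP0, RpLP1, RpLP2, RpL40, RpS27A, RpL3, RpS3 and RpS6, called context genes and Parp1. RpL18, RpL27A and the other members listed as departing or stable were named after their values were seen. Members and lists were chosen with earlier results of these data known. Replicate numbers in the library titles were checked for pairing over genes with a mean of at least 1 CPM. Deviations of same-numbered KD and PARPi libraries correlated at 0.57, 0.33 and 0.13, while KD and WT in December gave 0.23, -0.01 and -0.04. Some members are not reported here by name.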

Additional observations from a re-analysis of the deposited data

Results flagged for a closer look

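Only the October KD group, with 4 libraries, was large enough to look for a library that stood apart, and 5 of 53 values did so, where chance gives about 1 in 20. Replicate 1 was furthest from the others for RpLP0-like, at 117 CPM, and for RpS19b, at 12.7 CPM. Replicate 3 was furthest for RpS5b, at 4.89 CPM, for eEF1beta, at 1062 CPM, and for sta, at 3909 CPM.

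The change in KD differed between the months by the test of the difference itself for 40 of 52 named genes. The October change minus the December change, on the log2 scale, was RpL10Ab 0.81, RpL12 0.53, RpL22 0.48, RpL24-like 0.97, RpL27 0.50, RpL29 0.90, RpL3 0.87 and RpL38 0.74. For further members it was RpL39 0.84, RpL40 0.42, RpL41 0.79, RpL7 0.57, RpL9 0.54, RpLP0 0.35, RpLP0-like 0.30 and RpLP1 0.71. It was also RpLP2 0.73, RpS10b 0.45, RpS13 0.47, RpS15Aa 0.74, RpS19a 0.30, RpS19b 0.82, RpS27A 0.61 and RpS28b 0.55. It was also RpS3 0.70, RpS5a 0.44 and RpS6 0.45. Outside the members it was Irbp18 0.31, M1BP 0.36, Nacalpha 0.31, Rack1 0.61, Thor -0.80, Trf2 0.28, bic 0.38, eEF1alpha1 0.45, eEF1beta 0.71, eEF1gamma 0.41, eEF2 0.61, eEF5 0.54 and sta 0.71. Thor was the only one of these 40 with a difference below 0.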

How the results depend on the processing

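Among called results, alternatives moved counts more than directions. The PARPi core median was -0.07, but 0.06 in a fit of both months with a term for the month. It lay between -0.11 and 0.0040 with 1 library left out. In PARPi against WT, 0 members were called, against 2 with DESeq2, 6 without the filter and 1 with a length trend removed. In December KD against WT, 41 were called, against 63 with DESeq2. The fit with the term for the month holds 1 KD effect averaged over both months, so it gives no December contrast. It called 3 members for KD against WT. RpL24-like (0.10), RpS27A (0.0158), RpS3 (0.0446), eEF1beta (0.0849) and sta (0.0594) lay above 0 in it. In KD against PARPi, 3 were called, against 29 with DESeq2, 38 without the filter, 1 when library sizes left out the 20 most counted genes and 1 with the term for the month. Of members departing, PARPi gave 4 without the filter, and with a length trend over the core removed December KD gave 9 of 18 and KD against PARPi 2. Leaving out 1 library gave 0 to 5, 8 to 50 and 1 to 51 members called in PARPi against WT, KD against WT and KD against PARPi of December, and 0 to 3, 4 to 20 and 0 to 9 departing. In October, 17 to 32 departed, 17 of them without WT replicate 2. Without the 20 other genes with the most counts, members took a mean of 33.6% of counts in December KD, 36.3% in PARPi and 38.1% in WT, and 39.8% in October KD and 36.4% in WT. Over genes with a mean of at least 1 CPM, same-numbered KD and PARPi libraries correlated at 0.13 to 0.57. By these correlations 9 of 15 libraries were closest to their own number. Over the core members the KD and PARPi pairs gave 0.91, 0.62 and -0.20. October KD and WT pairs gave 0.57, 0.59 and 0.15. Different-numbered December libraries reached 0.67 as well, as PARPi replicate 2 with WT replicate 3 did, so these values do not settle which libraries are pairs. With the replicate block, 9, 62 and 50 members were called in PARPi against WT, KD against WT and KD against PARPi, and 6, 30 and 6 departed, while the block with the length trend gave 6 in PARPi against WT and 12 in KD against PARPi. For the 94 called results of named genes, 1648 values kept the call, 145 lost it and 5 turned, all 5 in the fit with the term for the month. Results not called were not counted.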
